A study of Homo sapiens with 6 samples.

Results

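The genes described here are the zinc finger genes that carry the symbol Zfp and a number and that were well counted. They are the rows of a read count table whose symbol is Zfp, a number and at most 1 letter, and which held at least 200 reads in every one of 6 RNA-seq libraries. Of 22989 genes in the table, 380 have such a symbol, and 209 of these met the count. The members were thus selected on their measured counts in all 6 libraries, so their levels are a description. The rule does not name the difference between the groups, but a minimum in every library acts on the lower group. The fold changes of the members are therefore not independent of the rule, which was also chosen with earlier results of these data known. A gene that fell under 200 reads in one group is no member, and 22 Zfp genes reached 200 in every WT library but not in every KD library, against 5 the other way round.

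Zfp proteins of the C2H2 type fold short loops of the chain around zinc ions, and rows of such fingers read DNA, RNA or other proteins. Many carry a KRAB domain, which recruits the co-repressor Trim28, which in turn brings the histone methyltransferase Setdb1 and heterochromatin proteins to silence retroelements and genes. Others have no KRAB domain and act as promoter factors, as partners of chromatin enzymes, in RNA decay, splicing and translation, or as ubiquitin ligases. Genes of the KRAB class are often arrayed in clusters of close copies, so reads of such copies may be divided between them in a way not given in the sources used here.

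The 6 libraries are all labelled as paclitaxel-resistant breast cancer stem cells (BCSC) of MDA-MB-231, a human triple-negative breast cancer line, which the study sorted for high aldehyde dehydrogenase activity. In the KD group, 3 libraries, the long non-coding RNA LINC00115 was targeted with a short hairpin RNA, and the other 3 libraries are labelled WT, where the study's text names a control hairpin. Of a pair of hairpins, the study's text names the second one, sh115-2, for its RNA-seq comparison, while the labels describe the KD libraries by the hairpin name sh115 followed by 1, 2 or 3. LINC00115 is not a row of the table, so the knockdown could not be checked in these counts. Nothing states that the libraries of a group are separate cultures, and the p-values then measure only the spread between these libraries.

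The symbols are those of mouse genes, although the labels give human cells and the study's text and labels name human genome builds. Of the 209 members, 7 have a symbol that equals a current human one apart from case, 141 share only their number with a human ZNF gene, and 61 have neither. These 61 include Zfp809 and Zfp932, known as mouse silencers of retroviruses, with at least 559 and 400 reads in every library. The species of the cells was not tested, and no sequence or position is given for the members because no mouse reference was used. Of 8 markers of the labelled cells, Vim, Cd44, Krt8 and Krt18 were at 128.5 normalized CPM or more in every library, Aldh3a1 lay between 20.6 and 33.8, Egfr between 5.34 and 10.8 and Aldh1a1 between 0.212 and 1.34, and Aldh1a3 was at or near 0. These markers also moved with the groups: of the 7 tested, 6 were higher in KD, and the median of their 7 log2 fold changes was 0.67 (Vim 0.13, Krt8 0.67, Krt18 0.87, Egfr 0.69, Aldh3a1 0.59 and Aldh1a1 1.82), and Cd44, at −0.05, did not pass. Library totals lay between 36979221 and 38799331 reads. Markers of other cells moved as well. The summed level of 7 lung markers was 0 to 0.159 normalized CPM in the WT libraries, where 6 of the 7, Scgb1a1 and the surfactant genes Sftpa1, Sftpb, Sftpc and Sftpd among them, had no count, and 64.4 to 77.4 in the KD libraries, with 7 of 7 higher. For 8 leukocyte markers the sums were 34.7 to 35.7 and 99.4 to 111, with 4 of 8 higher, S100a8 carrying most of the sum, Cd3e at 0 in every library and Ptprc, Csf1r and Cd79a under 0.4. The part of these marker differences in the results on the members was not tested.

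At an adjusted p under 0.05, 98 of the 209 members were lower and 69 were higher in the KD libraries than in the WT libraries, and 42 did not pass. Together, 79.9% of the members passed in either direction, against 73.4% of all 13497 genes tested. Of the 9446 genes with at least 200 reads in every library, 79.7% passed, so the members passed about as often as these. The direction differed more. The share of lower members was 46.9%, and that of higher members 33.0%. Over all genes tested, the shares were 36.7% lower and 36.7% higher, and over the genes with at least 200 reads they were 38.8% lower and 40.9% higher. Lower calls were thus more frequent among the members than among the genes with at least 200 reads, and higher calls less frequent. This is a description without a test, and the sets were not matched on count. The median of the mean count was 780 for the members and 1945 for all genes with at least 200 reads. In bulk RNA, fewer cells of a type and less RNA per cell cannot be told apart. Most changes were small. With a fold over 2 as well, 8 of the 209 members were lower and 4 of the 209 were higher. The shares were 9.98% and 10.2% of all genes tested and 4.13% and 5.45% of the genes with 200 reads or more.

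The median log2 fold change of the members, KD over WT, was −0.11, with the middle 50% of members between −0.49 and 0.32 and the whole range from −2.42 to 1.60. The median over all genes tested was −0.01 and over the other 9237 genes with at least 200 reads 0.02. A log2 fold change under 0 was measured in 122 members and over 0 in 87. Of the 167 members that passed, 27 changed by less than 1.2-fold, 83 by 1.2 to 1.5-fold, 45 by 1.5 to 2-fold and 12 by more than 2-fold. The groups did not overlap in 169 of the 209 members (80.9%), against 75.6% of all genes tested and 81.2% of those with at least 200 reads. In 162 of the 167 that passed, the 3 KD libraries did not overlap the 3 WT libraries. The exceptions, named after their values were seen, were Zfp276, Zfp41, Zfp61, Zfp850 and Zfp971, with log2 fold changes between −0.27 and 0.29. The 42 members that did not pass had log2 fold changes between −0.29 and 0.25, and in 7 of these the groups did not overlap either.

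**Figure D1:**
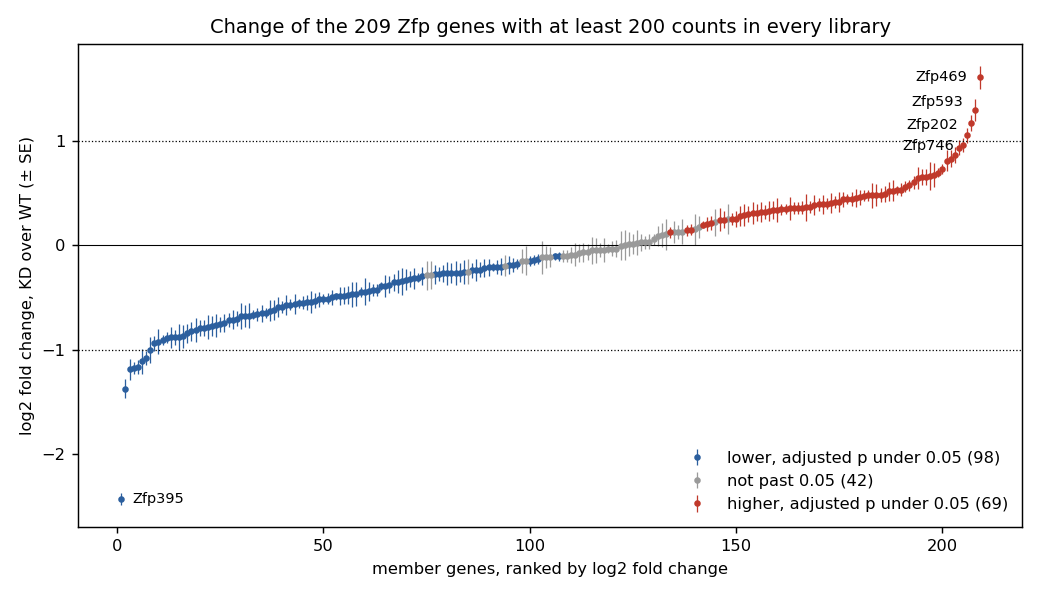
Log2 fold change, KD over WT, of each of the 209 members (vertical axis, bars are ± 1 SE) in rank order (horizontal axis), coloured by the test. The 98 lower and 69 higher members flank 42 grey ones near 0, Zfp395 stands apart at −2.42, and dotted lines mark 2-fold.

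The number of members that did not pass moved with their read counts. Among the 70 members with the fewest reads, a mean of 252 to 557 per library, 25 did not pass and the median SE of the log2 fold change was 0.11, while among the 70 with the most reads, a mean of 1191 to 22067, 8 did not pass and the median SE was 0.06. Lower calls outnumbered higher calls 30 to 15 in the first of these sets, 36 to 24 in the 69 members between them, and 32 to 30 in the last. The count of lower against higher members was near even for the members with the most reads. The same split was not made for other genes, so whether this pattern is particular to the members was not tested. Over all genes with at least 200 reads in every library, 38.8% were lower and 40.9% higher.

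Zfp genes under the count minimum had lower log2 fold changes still. Of these, 119 had enough reads for the test, and 57 (47.9%) were lower, 14 (11.8%) were higher and 48 did not pass. Their median log2 fold change was −0.42. Among all 13497 genes tested, 36.7% were lower and 36.7% higher, and the genes under the minimum were not counted apart. The minimum also draws in genes by their difference: 22 Zfp genes reached 200 reads in every WT library but not in every KD library, against 5 the reverse. The direction and summed level of this set are thus not free of the rule. Over all 328 Zfp genes tested, 155 (47.3%) were lower and 83 (25.3%) were higher, and their median was −0.21. The other 52 of the 380 listed had too few reads for the test, and 2 of them had none. In summed level, the members took 7878, 7896 and 7743 normalized CPM in the WT libraries and 7169, 7244 and 7236 in the KD libraries, a change of −7.94%, and the Zfp genes under the minimum changed by −26.8%, from 504 to 369. Zfp106, which held the most reads of any member, and Zfp395 carried much of the members' drop: without them the sum changed by −4.62%.

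**Figure D2:**
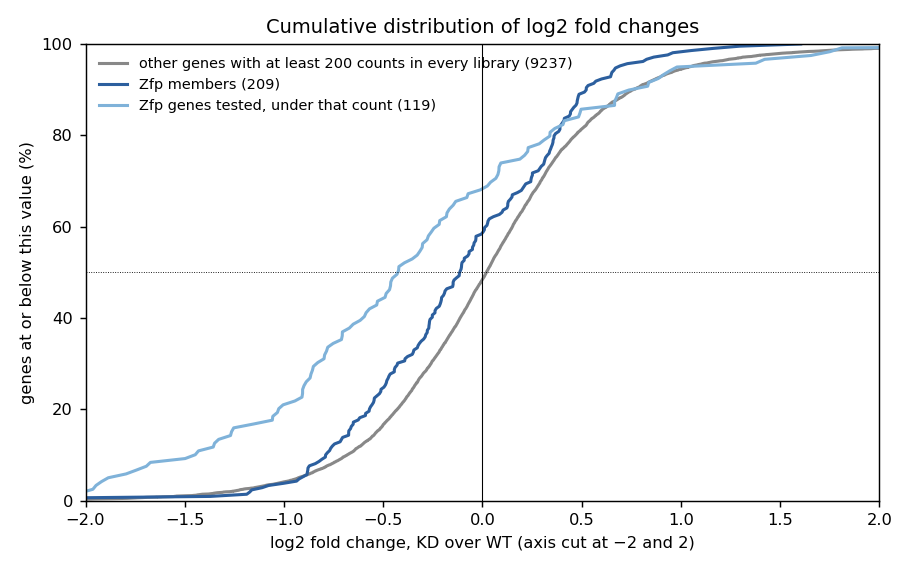
Cumulative share of genes (vertical axis, %) by log2 fold change, KD over WT (horizontal axis, shown from −2 to 2). The curve of the 209 members lies to the left of that of the 9237 other genes with at least 200 reads over most of its course (medians −0.11 and 0.02), and the curve of the 119 Zfp genes tested under that count lies farther left in its lower part (median −0.42).

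The 10 largest changes each way are given here and in the next paragraph. They were taken only from members with an adjusted p under 0.05 and no overlap between the groups. That the groups lie apart in these genes thus follows from the choice. Among the members that fell, Zfp395 changed most. Zfp395, a factor known to be induced by low oxygen, was at 134, 116 and 123 normalized CPM in the WT libraries and at 23.9, 24.1 and 21.6 in the KD libraries, a log2 fold change of −2.42 ± 0.06 (SE, adjusted p = 3.49e-28). Every WT library was far above every KD library. Zfp444, a SCAN-domain factor, had 24.3, 23.5 and 25 normalized CPM with WT and 8.97, 9.02 and 10.1 with KD (log2 fold change −1.37 ± 0.09, adjusted p = 1.78e-15). Zfp846 measured 24.0, 22.8 and 22.8 normalized CPM in WT against 10.9, 11 and 8.61 in KD, or −1.19 ± 0.10 as a log2 fold change (adjusted p = 3.69e-13). Zfp516, a factor of brown fat gene activation, was at 83.0, 76.0 and 78.6 normalized CPM in the WT libraries and at 34.3, 36.6 and 34.6 in the KD libraries, a log2 fold change of −1.17 ± 0.05 (SE, adjusted p = 8.77e-20). For these genes as well the groups lay far apart, and the KD values were under 50% of the WT means. Zfp260, known as a transcription factor of the heart, had 51.3, 48.1 and 48.2 normalized CPM with WT and 22.7, 23.1 and 20.2 with KD (log2 fold change −1.16 ± 0.07, adjusted p = 3.87e-17). Zfp53 measured 12.0, 13.5 and 15.1 normalized CPM in WT against 6.49, 5.56 and 6.77 in KD, or −1.11 ± 0.12 as a log2 fold change (adjusted p = 5.83e-10). Zfp955b was at 48.0, 43.3 and 43.9 normalized CPM in the WT libraries and at 21.6, 22.9 and 19.6 in the KD libraries, a log2 fold change of −1.08 ± 0.07 (SE, adjusted p = 1.16e-15). In Zfp53 the WT libraries spread widest of these relative to their mean, and its lowest WT value was still above its highest KD value. Zfp229, a KRAB-type gene, had 11.7, 13.1 and 12.9 normalized CPM with WT and 5.71, 6.70 and 6.45 with KD (log2 fold change −1.0 ± 0.12, adjusted p = 3.8e-09). That value sits on the 2-fold line, and in 5 of 13 other analyses its log2 fold change was no longer past −1: with DESeq2's size factors or DESeq2's test, without WT replicate 2 or 3 and without KD replicate 1, where it was −0.93 (range −1.05 to −0.93). Next in size were the KRAB-type genes Zfp426 and Zfp560, with log2 fold changes of −0.94 ± 0.07 and −0.92 ± 0.12, and neither reached 2-fold.

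Zfp469 rose most. Zfp469, whose human counterpart is linked to a collagen disorder of the cornea, measured 7.01, 6.22 and 5.74 normalized CPM in WT against 18.8, 17.5 and 21.3 in KD, or 1.60 ± 0.11 as a log2 fold change (adjusted p = 4.52e-15). Zfp593, the counterpart of a yeast factor for export of the large ribosomal subunit, was at 7.49, 8.87 and 9.26 normalized CPM in the WT libraries and at 19.9, 19.3 and 23.7 in the KD libraries, a log2 fold change of 1.30 ± 0.10 (SE, adjusted p = 3.21e-13). Zfp202, a repressor of lipid metabolism genes, had 15, 14.1 and 14.2 normalized CPM with WT and 31.5, 32.3 and 33.2 with KD (log2 fold change 1.16 ± 0.08, adjusted p = 1.42e-15). By the choice of genes, the lowest KD library was above the highest WT library in all of these, and Zfp593 had the widest KD spread. Zfp746, a KRAB-type repressor also called PARIS and a target of the ligase parkin, measured 17.1, 16.9 and 18.1 normalized CPM in WT against 36.9, 34.4 and 36.9 in KD, or 1.05 ± 0.07 as a log2 fold change (adjusted p = 5.42e-15). These 4 members were the ones more than 2-fold higher, and each stayed over 2-fold in 13 of 13 other analyses. Zfp800 was at 20.7, 24.2 and 24.7 normalized CPM in the WT libraries and at 44.7, 43.8 and 46.7 in the KD libraries, a log2 fold change of 0.96 ± 0.07 (SE, adjusted p = 2.13e-14). Zfp777, a KRAB-type gene, had 23.0, 23.2 and 20.9 normalized CPM with WT and 39.7, 42.9 and 45.5 with KD (log2 fold change 0.93 ± 0.07, adjusted p = 4.62e-14). Zfp568, a KRAB-type silencer of a placental Igf2 transcript, measured 21.1, 23.4 and 21.5 normalized CPM in WT against 40.6, 43.2 and 36.3 in KD, or 0.86 ± 0.07 as a log2 fold change (adjusted p = 1.05e-12). All 3 were under 2-fold, Zfp568 at 1.82-fold, and by the choice of genes their groups did not overlap. The next were Zfp277, a partner of Polycomb proteins, with a log2 fold change of 0.83 ± 0.08, Zfp628 at 0.81 ± 0.10 and Zfp346 at 0.73 ± 0.05.

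**Figure D3:**
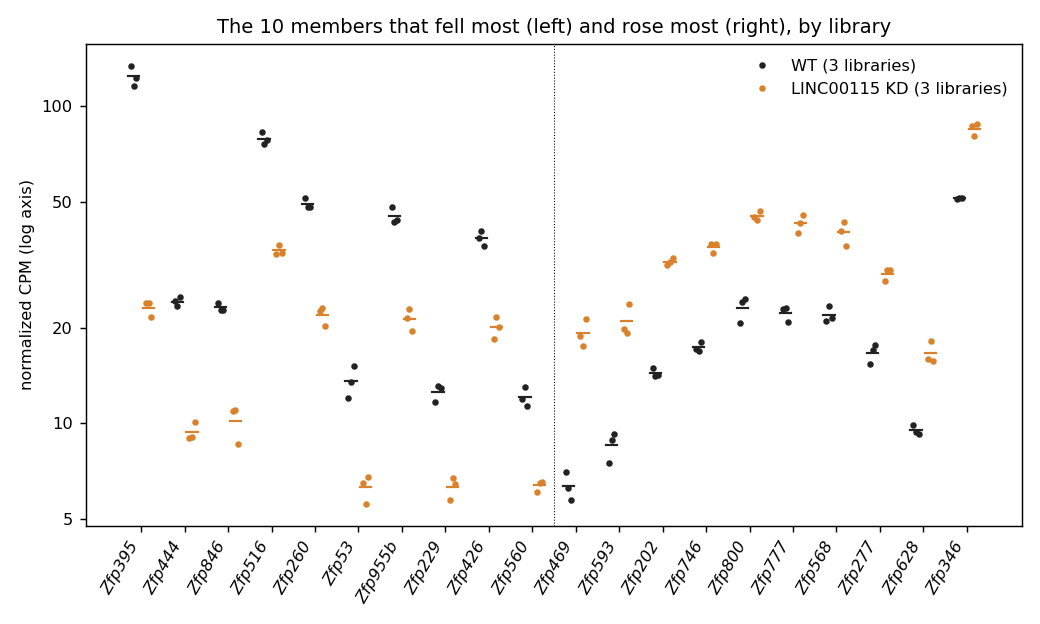
Normalized CPM (vertical log axis) of the 10 members that fell most and the 10 that rose most, among those with an adjusted p under 0.05 and no overlap. Points are the 3 WT (black) and 3 KD (orange) libraries and short lines their means, and for Zfp395 the means are 124 and 23.2.

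The role lists below are described by counts and medians, to be read beside the 40.9% higher, 38.8% lower and median of 0.02 of genes with at least 200 reads, and no list was tested as a set. The lists do not hold every gene of a class. RNA-binding and translation factors went both ways: of 11 members on that list, 5 rose, 4 fell and 2 did not pass, and the median log2 fold change was −0.03. Zfp593 is given above. Zfp622, another maturation factor of the large ribosomal subunit, was at 82.2, 76.2 and 89.1 normalized CPM in the WT libraries and at 123, 116 and 129 in the KD libraries, a log2 fold change of 0.57 ± 0.05 (SE, adjusted p = 2.45e-12). Zfp346, which binds double-stranded RNA, had 51.1, 51.3 and 51.6 normalized CPM with WT and 87.0, 80.4 and 87.8 with KD (log2 fold change 0.73 ± 0.05, adjusted p = 4.67e-15). Zfp36, tristetraprolin, which binds AU-rich mRNAs and speeds their decay, measured 24.9, 27.6 and 24.4 normalized CPM in WT against 31.0, 32.3 and 32.5 in KD, or 0.32 ± 0.07 as a log2 fold change (adjusted p = 0.000153). Zfp622 and Zfp346 were higher by about 1.5-fold or more, and Zfp36 by less. Zfp207, a spindle and splicing protein, was at 199, 212 and 207 normalized CPM in the WT libraries and at 238, 238 and 233 in the KD libraries, a log2 fold change of 0.20 ± 0.04 (SE, adjusted p = 1.09e-05). Zfp326, which couples splicing to transcript elongation, had 83.4, 87.1 and 84.9 normalized CPM with WT and 46.5, 47.4 and 44.5 with KD (log2 fold change −0.88 ± 0.05, adjusted p = 2.58e-17). Zfp385a, a p53 cofactor that also binds mRNA, measured 26.5, 26.3 and 25.5 normalized CPM in WT against 15.4, 15 and 14.8 in KD, or −0.79 ± 0.08 as a log2 fold change (adjusted p = 7.53e-11). The fall of Zfp326 and Zfp385a was larger than the rise of Zfp207, which was small beside a tight spread. Zfp106, a nuclear RNA-binding protein needed by motor neurons, was at 691, 702 and 655 normalized CPM in the WT libraries and at 478, 494 and 488 in the KD libraries, a log2 fold change of −0.49 ± 0.03 (SE, adjusted p = 1.84e-15). Zfp638, which represses unintegrated retroviral DNA, had 76.4, 81.3 and 78.3 normalized CPM with WT and 70.5, 70.2 and 74.8 with KD (log2 fold change −0.13 ± 0.05, adjusted p = 0.0152). Zfp106 was lower in every KD library, and the smaller change of Zfp638 did not pass without WT replicate 2, without KD replicate 1 or without KD replicate 2, at −0.11 in each. Zfp598, the ligase that senses collided ribosomes, was at 109, 104 and 103 normalized CPM in the WT libraries and 102, 101 and 106 in the KD libraries, a log2 fold change of −0.03 ± 0.04 (adjusted p = 0.477). Zfp830 was at −0.07 ± 0.09 (adjusted p = 0.512), and in both genes the groups overlapped. The paralogs of Zfp36 have symbols outside the member rule, and they moved apart: Zfp36l2 rose by 0.69 ± 0.04 on the log2 scale and Zfp36l1 fell, at −0.18 ± 0.05.

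Of 10 promoter factors, 7 rose and 3 fell, with a median log2 fold change of 0.35. Zfp91, a ubiquitin ligase of NF-kB signalling, measured 81.7, 89.7 and 91.1 normalized CPM in WT against 135, 144 and 146 in KD, or 0.69 ± 0.05 as a log2 fold change (adjusted p = 1.42e-15). Zfp64 was at 47.3, 54.1 and 49.5 normalized CPM in the WT libraries and at 77.8, 70.9 and 74.0 in the KD libraries, a log2 fold change of 0.56 ± 0.05 (SE, adjusted p = 4.01e-11). Zfp131, a BTB-domain factor, had 68.9, 70.5 and 74.5 normalized CPM with WT and 100.1, 105 and 102 with KD (log2 fold change 0.52 ± 0.05, adjusted p = 3.11e-12). Each of these was higher in every KD library. The other higher ones were Zfp281 and Zfp148, which bind GC-rich promoters, Zfp335 and Zfp276, with log2 fold changes of 0.48 ± 0.05, 0.35 ± 0.04, 0.34 ± 0.05 and 0.29 ± 0.10. For Zfp276 the groups overlapped (adjusted p = 0.014), and without WT replicate 1 or without KD replicate 3 it did not pass (log2 fold changes of 0.18 and 0.23). Zfp143, a promoter factor that also anchors chromatin loops, measured 30.5, 30.9 and 31.6 normalized CPM in WT against 17.2, 18.8 and 17.8 in KD, or −0.79 ± 0.07 as a log2 fold change (adjusted p = 1.63e-11). Zfp219, a partner of Sox9, was at 32.5, 36.2 and 36.0 normalized CPM in the WT libraries and at 26.1, 23.1 and 25 in the KD libraries, a log2 fold change of −0.50 ± 0.07 (SE, adjusted p = 1.57e-07). Zfp384, a nuclear matrix factor, had 72.6, 73.5 and 72.3 normalized CPM with WT and 63.7, 64.0 and 65.1 with KD (log2 fold change −0.18 ± 0.05, adjusted p = 0.00115). Zfp143 thus fell most of the promoter factors, and the change of Zfp384 was small, with no overlap. Zfp91 is also on a list of 3 ubiquitin and SUMO ligases, in which Zfp451, a SUMO ligase, was at 0.15 ± 0.06 (adjusted p = 0.0176). Zfp451 did not pass with upper quartile scaling, at 0.11, or without WT replicate 3 or KD replicate 2, at 0.12 in each.

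All 9 partners of histone methyltransferases and remodellers passed the test, with 6 higher and 3 lower and a median log2 fold change of 0.25. Zfp532, Zfp592 and Zfp687 are known to share a complex with the chromatin reader Zmynd8, and they did not move together. Zfp687 measured 98.3, 98.0 and 92.5 normalized CPM in WT against 50.4, 51.1 and 52.9 in KD, or −0.90 ± 0.05 as a log2 fold change (adjusted p = 5.38e-18). Zfp592 was at 41.6, 44.7 and 42.4 normalized CPM in the WT libraries and at 58.8, 52.5 and 54.7 in the KD libraries, a log2 fold change of 0.37 ± 0.06 (SE, adjusted p = 8.13e-07). Zfp532 had 47.3, 51.0 and 51.3 normalized CPM with WT and 51.3, 57.5 and 56.1 with KD (log2 fold change 0.14 ± 0.06, adjusted p = 0.0267). The fall of Zfp687 had no overlap between the groups. The rise of Zfp532 did not pass without WT replicate 1, KD replicate 2 or KD replicate 3 (0.10, 0.12 and 0.13), nor with upper quartile or library size scaling (0.10 and 0.12). Zfp518a measured 6.64, 6.20 and 5.32 normalized CPM in WT against 8.58, 10.9 and 9.27 in KD, or 0.66 ± 0.14 as a log2 fold change (adjusted p = 5.93e-05). Zfp644, which joins the histone methyltransferases Ehmt1 and Ehmt2, was at 43.7, 48.2 and 49.6 normalized CPM in the WT libraries and at 55.7, 58.7 and 54.1 in the KD libraries, a log2 fold change of 0.25 ± 0.06 (SE, adjusted p = 0.000223). Zfp410, known for driving transcription of the remodeller gene Chd4, had 27.9, 28.0 and 30.5 normalized CPM with WT and 38.1, 41.9 and 40.9 with KD (log2 fold change 0.48 ± 0.07, adjusted p = 6.05e-08). These values were higher in every KD library, and Zfp518a had the lowest count of any member in a single library. Chd4 itself, named after its values were seen, was lower, at −0.54 ± 0.03 (adjusted p = 1.37e-16). Zfp518b, a partner of Ehmt2, was at 0.31 ± 0.10 (adjusted p = 0.00735), and without WT replicate 3 it did not pass, at 0.22. Zfp217, a CoREST partner whose human gene is amplified in breast cancers, measured 149, 149.5 and 152 normalized CPM in WT against 92.7, 97.8 and 94.0 in KD, or −0.66 ± 0.04 as a log2 fold change (adjusted p = 2.02e-16). Zfp462, a heterochromatin partner that restrains early differentiation genes, was at 61.4, 61.0 and 58.9 normalized CPM in the WT libraries and at 38.1, 41.2 and 41.3 in the KD libraries, a log2 fold change of −0.59 ± 0.06 (SE, adjusted p = 1.77e-11). Both were lower in every KD library.

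The 6 members listed for cancer, stemness and differentiation were all lower, with a median log2 fold change of −0.63. They include Zfp395, Zfp516, Zfp217 and Zfp462, described above. Zfp703, whose human gene is amplified in luminal breast cancers, had 103, 107 and 96.9 normalized CPM with WT and 72.9, 73.4 and 68.4 with KD (log2 fold change −0.51 ± 0.05, adjusted p = 1.14e-11). Zfp322a, a pluripotency factor, measured 24.2, 22.8 and 20.9 normalized CPM in WT against 17.8, 17.9 and 17.5 in KD, or −0.35 ± 0.08 as a log2 fold change (adjusted p = 0.000265). In both the groups did not overlap. The list was written with earlier results known and does not hold every such gene, so the shared direction rests on the choice of genes. Its genes under the count minimum did not follow: Zfp296 and Zfp423 were higher (1.75 ± 0.14 and 1.81 ± 0.61), Zfp467 was lower (−0.91 ± 0.26) and Zfp521 had too few reads for the test.

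**Figure D4:**
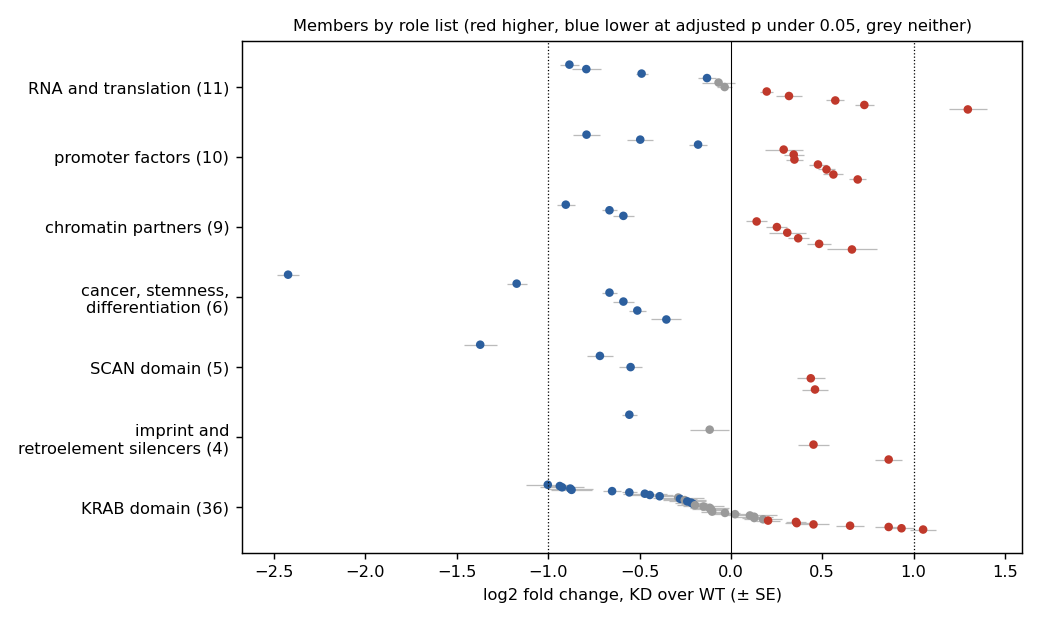
Log2 fold change, KD over WT (horizontal axis, bars are ± 1 SE), of the members of each role list, with the number of members in brackets. The 6 members listed for cancer, stemness and differentiation lie left of 0, and the other lists shown hold members on both sides. The cancer list was written with earlier results known and does not hold every such gene. Of its tested genes under the count minimum, not shown here, Zfp296 and Zfp423 were higher and Zfp467 was lower.

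Of 36 members on the KRAB list, 14 fell, 8 rose and 14 did not pass, with a median log2 fold change of −0.13. Past 2-fold on this list were Zfp229, which fell, and Zfp746, which rose. The share not passing was larger than among the members as a whole, and these genes also had fewer reads, with a median of the mean count of 602 against 780 for all members. Among all 69 KRAB-list genes tested, 28 fell and 13 rose. The list does not hold every KRAB gene, so these counts rest on the choice of genes. Not on it are Zfp53, Zfp846 and Zfp955b, which fell past 2-fold, and Zfp202, which rose past 2-fold. Whether these carry a KRAB domain was not checked. Of the silencers of imprinted genes and retroelements, 4 were members: Zfp568 and Zfp809 rose, Zfp445 fell and Zfp932 did not pass. Zfp809, which silences murine leukaemia proviruses, was at 16.1, 16.3 and 14.8 normalized CPM in the WT libraries and at 20.1, 20.9 and 23.5 in the KD libraries, a log2 fold change of 0.45 ± 0.09 (SE, adjusted p = 2.23e-05). Zfp445, which maintains genomic imprints, had 146, 136 and 136 normalized CPM with WT and 94.4, 94.8 and 94.9 with KD (log2 fold change −0.56 ± 0.04, adjusted p = 5.51e-14). Zfp932, a silencer of endogenous retroviruses, measured 11.1, 11.6 and 12.6 normalized CPM in WT against 10.8, 11.3 and 10.5 in KD, or −0.12 ± 0.11 as a log2 fold change (adjusted p = 0.327). For Zfp932 the groups overlapped. Zfp57, the other imprint keeper, was under the count minimum and was lower, at −1.0 ± 0.22.

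All 5 members on the SCAN-domain list passed the test, with 3 lower and 2 higher and a median log2 fold change of −0.55, and this direction rests on the choice of genes. Zfp202 and Zfp24, whose human counterparts also carry a SCAN domain, are not on the list and were both higher (1.16 ± 0.08 and 0.53 ± 0.06). With these genes, added after their values were seen, 4 of 7 were higher and 3 lower, and the median was 0.44. Zfp444 is given above. Zfp369 was at 39.5, 37.8 and 35.6 normalized CPM in the WT libraries and at 23.2, 23.7 and 21.8 in the KD libraries, a log2 fold change of −0.72 ± 0.07 (SE, adjusted p = 2.99e-11). Zfp397 had 47.5, 48.5 and 49.1 normalized CPM with WT and 30.9, 32.1 and 36.2 with KD (log2 fold change −0.55 ± 0.06, adjusted p = 1.75e-09). Zfp110, a protein that interacts with the neurotrophin receptor p75, measured 20.8, 24.1 and 24.9 normalized CPM in WT against 32.2, 32.6 and 29.6 in KD, or 0.44 ± 0.08 as a log2 fold change (adjusted p = 4.46e-06). Zfp369, a paralog of Zfp110, fell while Zfp110 rose, and neither had an overlap between the groups. How reads of their shared sequence were divided is not given in the sources used here. Zfp263 was at 28.7, 25.6 and 25.2 normalized CPM in the WT libraries and at 39.2, 33.8 and 36.4 in the KD libraries, a log2 fold change of 0.46 ± 0.07 (SE, adjusted p = 6.97e-07). This rise, too, was without overlap.

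Of 23 genes of the machinery that KRAB proteins call upon, 12 fell, 6 rose and 5 did not pass, with a median log2 fold change of −0.18. Trim28, the co-repressor bound by KRAB domains, had 302, 335 and 334 normalized CPM with WT and 387, 375 and 383 with KD (log2 fold change 0.24 ± 0.04, adjusted p = 5.23e-07). Setdb1, the histone methyltransferase that Trim28 recruits, measured 106, 105 and 107 normalized CPM in WT against 89.7, 93.6 and 88.5 in KD, or −0.22 ± 0.04 as a log2 fold change (adjusted p = 2.46e-05). The first was higher and the second lower in every KD library, each by less than 1.2-fold.

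The count minimum cut through genes of like level. Just inside it were Zfp518a, with 201 reads in its lowest library, and Zfp472 and Zfp53, each with 204. Just outside were Zfp959 with 199, Zfp689 with 196 and Zfp760 with 191. Of these 6, Zfp518a was higher, Zfp53 and Zfp760 were lower and the other 3 did not pass. Zfp472 was at 6.79, 6.12 and 5.40 normalized CPM in the WT libraries and 7.11, 7.49 and 7.14 in the KD libraries. Zfp959 was at 5.28, 5.48 and 5.27 in WT and 5.46, 7.63 and 5.74 in KD. Zfp689 was at 5.20, 5.67 and 6.06 in WT and 7.50, 6.43 and 5.90 in KD. In these 3 genes the groups lay close together, and they overlapped in Zfp959 and Zfp689. Zfp760 held 19.0, 17.2 and 16.2 in the WT libraries and 4.96, 6.24 and 5.03 in the KD libraries, so the minimum removed it for its low KD level. With a mean of at least 200 reads as the rule, 233 genes would be members, with 16 in place of 8 more than 2-fold lower and a median log2 fold change of −0.18.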

How the data were processed

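Of 6 RNA-seq libraries, 3 carry the label LINC00115 KD and 3 the label WT. The authors deposited raw read counts per gene without normalization. The study's text names HISAT2 and hg19, the labels' processing notes name HISAT2, featureCounts, DESeq2 and hg38, and the annotation and use of strand are not given in the sources used here. Columns of values not used number 0. All 22989 genes entered the library totals (36979221 to 38799331). Low counts were removed with filterByExpr, set to a minimum count of 10 and a minimum total of 15. It asks for the CPM that matches this count in at least 3 libraries, the size of a group, and not in every library. The remaining counts were scaled by TMM and tested in R 4.3.3 with the quasi-likelihood test of edgeR 4.0.16. Benjamini-Hochberg adjustment ran over 13497 genes, with the group as the only term. The thresholds, an adjusted p under 0.05 and, where said, a fold over 2, follow the study's methods. Normalized CPM are counts divided by the TMM-scaled total, given per library in the order of the labels, and are not per length, so levels are not compared between genes. The SE of a log2 fold change is its size divided by the square root of F. The median coefficient of variation of the members was 5.59% in WT and 5.01% in KD. Within a group, chi-square per degree of freedom between libraries was 3.88 to 7.60, above sampling noise, and no library was treated as a duplicate. The pipeline was tested on simulated counts.

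The members and the gene lists were chosen with earlier results of these data known. Named are the 10 members with the largest change each way among those with an adjusted p under 0.05 and no overlap between the groups, every member of a role list other than the KRAB list, the KRAB members over 2-fold, the 3 genes on either side of the count minimum, and Trim28 and Setdb1. Alternatives were other scalings (DESeq2 size factors, upper quartile, library size alone), other filters on low counts, the Wald test of DESeq2 1.42.0, leaving out each of the replicates, a replicate block and other count minimums for membership. No explanation was weighed.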

Additional observations from a re-analysis of the deposited data

How the results depend on the processing

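Of the 167 members that passed, 153 to 166 kept their call and direction in each of 13 other analyses of the counts, and none changed sign. Of 832 values of the 64 named genes in these analyses, 818 kept their side of the threshold and 14 no longer passed, all of them of Zfp276, Zfp451, Zfp518b, Zfp532 and Zfp638. When single replicates were left out, the median log2 fold change of the members ranged from −0.14 to −0.10. With upper quartile scaling it was −0.15, where the median of all genes was −0.05. The numbers of higher and lower members stayed within 1.5 times the reported ones in all 13.

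Other count minimums moved the results more. With at least 100 reads in every library, 258 genes were members, with 15 more than 2-fold lower and a median of −0.18. With at least 500, 129 genes were members, with 62 lower, 2 and 4 more than 2-fold higher and lower, and a median of −0.092. With a mean of at least 200, 233 genes were members, with 16 more than 2-fold lower and a median of −0.18. These sets hold other numbers of genes, and a minimum in every library leaves out genes that are low in one group.

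The replicate numbers did not pair the libraries: the correlations of deviations between same-numbered KD and WT libraries were 0.01, −0.02 and −0.02. With the replicate block, 69 members were higher and 97 lower, with a median of −0.11. With 3 libraries a group and a biological coefficient of variation of 5.21%, the smallest change of a member that passed was −0.11 on the log2 scale (Zfp664), and members that did not pass had SEs of 0.04 to 0.16.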
